A study of Homo sapiens with 8 samples.

Results

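The response to ciclopirox was described in SKNAS and SKNAS/shHIF1a, the SKNAS-derived lines among 4 human neuroblastoma cell lines, on 4 of the 8 arrays of the study. Each line had 1 array after 48 h with vehicle and 1 after 48 h with 2.5 µM ciclopirox, so there were 2 arrays against 2, paired by line, without repeat arrays. Members were chosen by the labelled cell line alone. All cells were grown in RPMI medium with fetal calf serum, and the labels do not name the vehicle. SKNAS is an established line labelled c-Myc, and SKNAS/shHIF1a, named as its derivative with a short hairpin against HIF1A, is labelled N-Myc. Whether the derivative is 1 clone or a pool, and whether arrays came from separate cultures, is not given in the sources used here, so the spread between lines may hold technical error. HIF1A, the gene targeted by the hairpin, had a log2 level of 12.25 in SKNAS under vehicle and 11.94 under ciclopirox, and 11.71 and 11.09 in SKNAS/shHIF1a. The derivative thus had the lower HIF1A transcript level under each treatment, by less than 1 on the log2 scale. MYC had levels of 10.16 and 9.86 under vehicle in SKNAS and SKNAS/shHIF1a, and MYCN had 2.77 and 5.41. In NB1691 and SKNBE2, also labelled N-Myc, MYC had 2.70 and 2.66 and MYCN 12.05 and 12.48, so the labelled status of SKNAS/shHIF1a goes against its levels, and lines were grouped by their names. Array medians lay between 3.47 and 3.52, and the number of arrays limits the precision.

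Ciclopirox is an antifungal drug that chelates iron. Iron is a cofactor of the prolyl hydroxylases that mark hypoxia-inducible factor (HIF) subunits for destruction, and iron chelators are known to raise HIF target genes. NF-kB is a family of transcription factors held in the cytoplasm by inhibitor proteins, and its targets include chemokines, adhesion molecules and its own inhibitors. Neuroblastoma cells can take a noradrenergic state, close to sympathetic neurons, or a mesenchymal state.

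The shared response held more increases than decreases, and the largest increases included chemokines, other inflammatory genes and HIF targets. A gene was placed in the shared set when it differed by at least 2-fold (1 on the log2 scale) in the same direction in both lines, and the smaller of its 2 changes is given as its conservative size. Of 14517 genes tested, 358 were in the shared set as higher under ciclopirox (2.47%) and 120 as lower (0.827%). No gene differed 2-fold in opposite directions in the lines. The median smaller change was 1.43 for higher genes and -1.23 for lower genes. At 4-fold in both lines 76 genes were higher and 3 were lower, and at a smaller change of at least 3 on the log2 scale 18 were higher and 0 lower. The increases therefore reached larger sizes than the decreases.

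SKNAS alone had 725 genes past 2-fold, 490 higher and 235 lower, and SKNAS/shHIF1a had 1427, 802 higher and 625 lower. The shared set made up 65.9% of the SKNAS list and 33.5% of the SKNAS/shHIF1a list. Among higher genes it was 73.1% and 44.6% of these lists, and among lower genes 51.1% and 19.2%. Of the genes past 2-fold in SKNAS, 690 had the same sign in SKNAS/shHIF1a, and of those past 2-fold in SKNAS/shHIF1a, 1315 had the same sign in SKNAS. Over all tested genes 70.4% had the same sign in both lines. Within the shared set SKNAS/shHIF1a had the larger change for 266 of 358 higher genes and 91 of 120 lower genes, with median changes of 1.95 and -1.71 against 1.55 and -1.28 in SKNAS. With 1 array per line and treatment, this difference in size between the lines was not tested.

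The limma test over the 4 arrays, with the cell line as a block, called 33 genes higher (0.227% of genes tested) and 1 lower (0.00689%) at a Benjamini-Hochberg adjusted p under 0.05. All 34 were in the shared set, and each had a smaller change of at least 2.03 in size. At an unadjusted p under 0.05 there were 3403 genes, 1594 higher and 1809 lower, and all 478 shared genes were among them. The fit has 1 residual degree of freedom, and the count of calls moved from 0 without the block to 360 with a variance trend on intensity. SKNAS and its derivative share 1 origin but count as 2 lines in this fit, so its p-values may be too small. With 1 of the 2 lines left out, the other has 1 array per treatment and gives no spread of its own. The spread then comes from NB1691 and SKNBE2 alone. Of the 34 calls, 13 remained in all 7 other fits of the 4 arrays with the block. An exact permutation of signs over 2 lines gives a two-sided p of 0.5 at the least and was not used. Below, "rose" and "fell" are used of the called genes, and other members of the shared set are given by their values.

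**Figure D1:**
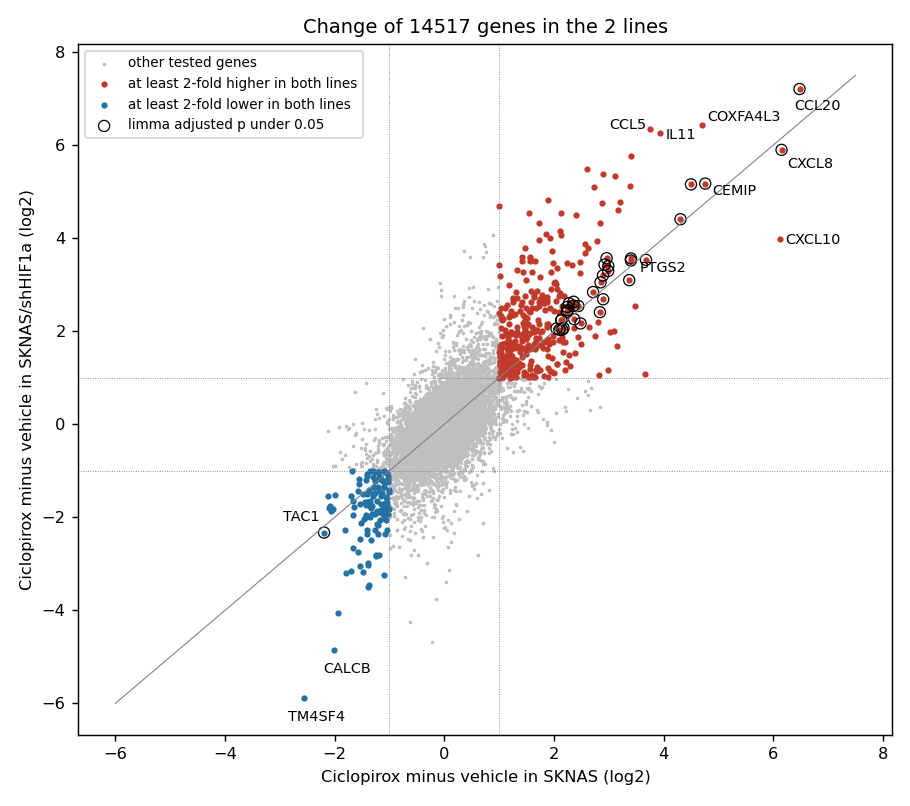
Ciclopirox minus vehicle (log2) in SKNAS (x axis) against SKNAS/shHIF1a (y axis) for 14517 genes, 1 point per gene. Red points are the 358 genes at least 2-fold higher in both lines, blue points the 120 at least 2-fold lower, open circles the 34 genes called by limma, dotted lines mark 2-fold and the solid line equal change. CCL20 lies farthest to the upper right, and the red points extend farther from the dotted lines than the blue ones.

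**Figure D2:**
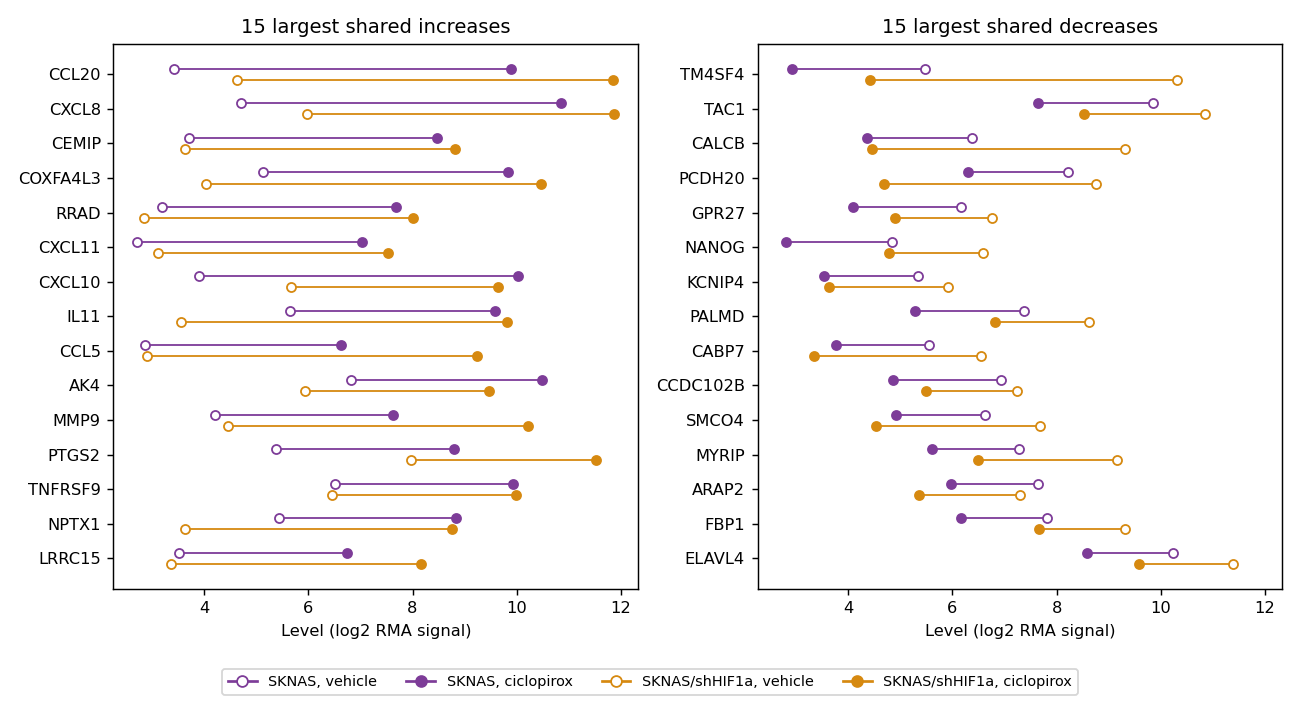
Log2 RMA level on each of the 4 arrays (x axis) for the 15 shared genes with the largest smaller change in each direction (rows). Open points are vehicle and filled points ciclopirox, purple is SKNAS and orange SKNAS/shHIF1a, and each point is 1 array. For each gene both filled points lie on the same side of their open points, from CCL20 at the top left to ELAVL4 at the lower right.

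Chemokines, the secreted proteins that attract leukocytes, held the largest changes. Of 22 chemokine genes on the array, 9 were in the shared set as higher and 0 as lower, and 12 reached the level filter. That filter uses the mean over all 8 arrays, treated ones included, so a gene can pass through its ciclopirox level. Over all 22 the median change was 0.49 in SKNAS and 0.40 in SKNAS/shHIF1a. Of all 19774 genes on the array 1.82% were shared higher and 0.607% lower, the shares to set beside list counts here and below. CCL20, a ligand of the receptor CCR6, went from 3.42 to 9.90 in SKNAS and from 4.64 to 11.85 in SKNAS/shHIF1a. This was a rise of 6.84 ± 0.23 (moderated SE, n = 2 lines, limma adjusted p = 0.0253). The moderated SE, given after ± here and below, is that of limma, with each gene's variance drawn toward that of all genes. CXCL8, the neutrophil attractant interleukin 8, went from 4.70 to 10.85 and from 5.98 to 11.88, a rise of 6.03 ± 0.15 (limma adjusted p = 0.0253). CXCL11, a ligand of the receptor CXCR3, went from 2.72 to 7.02 and from 3.12 to 7.53, a rise of 4.36 ± 0.14 (limma adjusted p = 0.0253). For each of these genes both ciclopirox arrays were above both vehicle arrays. Called genes have large changes in both lines, so such separation, here and below, is no added support. Its share over all tested genes was not counted. CXCL11 lay below the filter level of 3.21 on both vehicle arrays, where array background limits how low a value can read.

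CXCL10, another CXCR3 ligand, had levels of 3.90 and 10.02 in SKNAS and 5.66 and 9.65 in SKNAS/shHIF1a, so the change was larger in SKNAS (6.13 against 3.99). CCL5, an attractant of T cells, had levels of 2.87 and 6.62 in SKNAS and 2.90 and 9.24 in SKNAS/shHIF1a. The changes of these genes were as large as those of called genes but differed more between the lines, and neither passed the test (limma adjusted p = 0.0664 and 0.0732). CCL2, CCL7, CX3CL1 and CXCL2, which complete the 9, were named after their values were seen. CCL2 was already high under vehicle, at 11.58 and 12.30, and had changes of 1.31 and 1.02.

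The 250 bases before the start of 6 genes of the shared set are printed as examples from the chemokine, NF-kB and HIF target lists. They are not the 6 largest increases. CEMIP, COXFA4L3 and RRAD, with smaller changes of 4.76, 4.70 and 4.50, were above CXCL11, CXCL10, ICAM1 and BHLHE40. The sequences are from RefSeq on GRCh38.p14, 5′ to 3′ on the strand of the gene. Capitals mark matches, on either strand, to the NF-kB consensus or its shorter form GGNNTTTCC, which overlap, and in BHLHE40 to the hypoxia core ACGTG. The windows are CCL20 at chr2:227813592-227813841 (plus strand), CXCL8 at chr4:73740319-73740568 (plus), CXCL10 at chr4:76023498-76023747 (minus), CXCL11 at chr4:76036071-76036320 (minus), ICAM1 at chr19:10270870-10271119 (plus) and BHLHE40 at chr3:4979187-4979436 (plus).
CCL20: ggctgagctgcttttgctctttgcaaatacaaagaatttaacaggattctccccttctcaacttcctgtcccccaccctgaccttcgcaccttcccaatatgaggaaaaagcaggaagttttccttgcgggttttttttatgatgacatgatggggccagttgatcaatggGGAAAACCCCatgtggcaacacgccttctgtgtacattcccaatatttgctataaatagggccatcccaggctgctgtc
CXCL8: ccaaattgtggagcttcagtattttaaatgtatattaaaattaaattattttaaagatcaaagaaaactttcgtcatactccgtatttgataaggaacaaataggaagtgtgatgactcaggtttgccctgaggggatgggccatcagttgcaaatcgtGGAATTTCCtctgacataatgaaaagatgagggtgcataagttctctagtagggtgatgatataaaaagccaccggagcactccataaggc
CXCL10: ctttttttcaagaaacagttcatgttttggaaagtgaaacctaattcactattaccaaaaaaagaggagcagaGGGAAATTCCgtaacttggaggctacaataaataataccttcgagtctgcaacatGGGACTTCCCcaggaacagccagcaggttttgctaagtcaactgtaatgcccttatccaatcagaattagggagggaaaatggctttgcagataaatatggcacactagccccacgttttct
CXCL11: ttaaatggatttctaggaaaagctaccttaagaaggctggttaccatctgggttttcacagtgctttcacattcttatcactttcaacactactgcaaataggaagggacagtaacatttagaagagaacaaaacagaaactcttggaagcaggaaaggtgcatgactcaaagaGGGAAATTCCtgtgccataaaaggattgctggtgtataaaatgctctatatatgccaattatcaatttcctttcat
ICAM1: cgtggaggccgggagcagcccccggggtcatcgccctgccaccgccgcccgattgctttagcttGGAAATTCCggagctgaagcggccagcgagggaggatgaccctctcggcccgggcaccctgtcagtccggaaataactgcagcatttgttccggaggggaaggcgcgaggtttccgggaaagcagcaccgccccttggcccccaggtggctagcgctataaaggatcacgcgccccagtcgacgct
BHLHE40: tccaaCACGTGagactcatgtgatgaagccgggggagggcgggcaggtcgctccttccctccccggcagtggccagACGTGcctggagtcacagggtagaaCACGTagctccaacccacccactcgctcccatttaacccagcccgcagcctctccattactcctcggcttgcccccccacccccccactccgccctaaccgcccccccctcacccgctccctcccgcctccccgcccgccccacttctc

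In the window of CCL20 the consensus was matched with its first base at position -79 from the start, and in CXCL11 at -76. In CXCL10 the consensus was matched at -177 and -122. CXCL8 held only the shorter form, at -91, as did ICAM1, at -186. An AP-1 site, TGANTCA, lay at -137 in CXCL8 and at -87 in CXCL11. BHLHE40 held the hypoxia core at -245, -244, -174 and -149, where the first pair is 1 palindromic site read on both strands. CXCL10 also held that core, at -10 on the opposite strand. A match to letters is a description and not evidence of binding.

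Over RefSeq windows of 300 bases (250 before to 50 after the start), 282 of the 358 shared higher genes matched 416 windows, 99 of the 120 lower genes matched 163, and 11666 of all tested genes matched 16989. The NF-kB consensus was in 19.7% of windows of higher genes, 10.4% of lower genes and 13.1% of all tested genes. Its shorter form was in 11.8%, 6.13% and 6.56%, and the AP-1 site in 14.9%, 5.52% and 5.44%. The hypoxia core was in 22.8%, 21.5% and 24.7%, so the windows of shared higher genes held it no more often than those of all genes. Mean GC content was 62.2%, 57.1% and 63.0%. These shares carry no test, several windows can belong to 1 gene, and the shorter form and the AP-1 site were chosen after values were seen.

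Transcripts of NF-kB subunits and feedback targets were higher in both lines. The list was chosen with earlier results of these data known, so its counts are a description and not independent support. All 29 genes on the list of NF-kB subunits and feedback targets were tested, all 29 were higher under ciclopirox in both lines (as were 32.4% of all tested genes), 21 were in the shared set, and limma called 6. The median change was 1.36 in SKNAS and 1.69 in SKNAS/shHIF1a, against -0.02 and -0.03 over all tested genes. NFKB2, which encodes the p100 precursor of the subunit p52, rose from 4.57 to 7.53 in SKNAS and from 4.28 to 7.85 in SKNAS/shHIF1a (3.27 ± 0.21, limma adjusted p = 0.0483). ICAM1, an adhesion molecule for leukocytes, rose from 6.10 to 9.48 and from 7.42 to 10.52 (3.24 ± 0.16, limma adjusted p = 0.0402). TNFAIP6, a secreted hyaluronan-binding protein, rose from 6.31 to 8.66 and from 7.96 to 10.51 (2.45 ± 0.15, limma adjusted p = 0.0483). In ICAM1, NFKB2 and TNFAIP6 the lowest ciclopirox array was above the highest vehicle array.

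The other called members were RELB, TNFAIP2 and IRAK2, with smaller changes of 2.03, 2.17 and 2.24, of which RELB is an NF-kB subunit and IRAK2 a kinase of interleukin 1 signalling. PLAU, the urokinase protease, had changes of 2.62 and 3.79 and did not pass (limma adjusted p = 0.0648). The inhibitor gene NFKBIA had changes of 1.73 and 1.85, and TNFAIP3, which encodes the inhibitor A20, 2.16 and 1.76. RELA, the p65 subunit, lay outside the shared set with 0.82 and 0.87. RELB, TNFAIP2, IRAK2, NFKBIA, TNFAIP3 and RELA were named after their values were seen.

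A list of interleukins, interleukin 6 family genes and growth cytokines had 26 genes on the array. Of these 10 were in the shared set as higher and 0 as lower, and limma called IL33. Of the 21 tested, 17 were higher and 3 lower in both lines. IL33, an alarmin of the interleukin 1 family, rose from 4.08 to 6.33 in SKNAS and from 5.67 to 8.12 in SKNAS/shHIF1a (2.35 ± 0.15, limma adjusted p = 0.0483). IL11, a cytokine signalling through gp130, had levels of 5.64 and 9.58 in SKNAS and 3.55 and 9.81 in SKNAS/shHIF1a, without passing (limma adjusted p = 0.0664). For IL11 the vehicle arrays differed by more than 2 on the log2 scale while the ciclopirox arrays were close. IL1B, a main inflammatory interleukin, had changes of 2.78 and 3.95, and LIF, another gp130 ligand, 2.57 and 3.88.

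PTGS2, the inducible cyclooxygenase COX-2, rose from 5.39 to 8.79 in SKNAS and from 7.96 to 11.53 in SKNAS/shHIF1a (3.48 ± 0.15, limma adjusted p = 0.0306). The groups did not overlap, although the vehicle level in SKNAS/shHIF1a came within 1 of the ciclopirox level in SKNAS. PTGES, which acts after PTGS2 to make prostaglandin E2, had changes of 2.33 and 3.43, but its other probe set had a smaller change of 0.06. These were the only 2 of 18 prostaglandin genes on the array in the shared set. TNFRSF9, a costimulatory receptor of the tumour necrosis factor family, rose from 6.52 to 9.92 and from 6.46 to 9.98 (3.46 ± 0.14, limma adjusted p = 0.0306).

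Part of the interferon-response list was in the shared set. Of 37 on the array, 8 were in the shared set as higher and 0 as lower, and limma called 3 of them. ISG20, an antiviral exonuclease, rose from 5.04 to 7.89 in SKNAS and from 5.98 to 9.03 in SKNAS/shHIF1a (2.95 ± 0.15, limma adjusted p = 0.0402). IRF1, a transcription factor of interferon signalling, rose from 5.92 to 8.63 and from 5.52 to 8.36 (2.78 ± 0.15, limma adjusted p = 0.0402). GBP2, an interferon-induced GTPase, rose by 2.10 and 2.03. IFIT3 was the fourth by size, with changes of 1.69 and 2.03. The median over the 37 was 0.32 in SKNAS and 0.27 in SKNAS/shHIF1a, so most of this list changed by less than 2-fold.

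HIF targets were the other large group. Of 59 on the array, 58 were tested, 53 were higher in both lines (32.4% of all tested genes were), 22 were in the shared set as higher and 0 as lower, and limma called 3. The median change was 1.49 in SKNAS and 0.82 in SKNAS/shHIF1a. Among the 53 members of the same sign, SKNAS had the larger change in 40 and SKNAS/shHIF1a in 13. On the NF-kB list this was 8 and 21, and over all tested genes with the same sign 4013 and 6210. The difference between the lines carries no test here.

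AK4, a mitochondrial adenylate kinase, rose from 6.81 to 10.49 in SKNAS and from 5.93 to 9.46 in SKNAS/shHIF1a (3.61 ± 0.15, limma adjusted p = 0.0306). BHLHE40, a transcriptional repressor, rose from 5.64 to 8.63 and from 5.84 to 9.14 (3.14 ± 0.16, limma adjusted p = 0.0402). NDRG1, a stress-response gene, rose from 6.75 to 9.59 and from 7.08 to 9.49 (2.62 ± 0.18, limma adjusted p = 0.0483). Each of these 3 called members had both ciclopirox arrays above both vehicle arrays. STC1, a secreted glycoprotein, had a much lower vehicle level in SKNAS/shHIF1a (4.64) than in SKNAS (8.44) and reached 10.14 and 11.05, with changes of 5.50 and 2.61 that did not pass (limma adjusted p = 0.0948). VEGFA, the angiogenic growth factor, had changes of 1.67 and 1.70, and EPAS1, which encodes HIF-2 alpha, 1.57 and 1.97. PLOD2, a collagen lysyl hydroxylase, had 2.98 and 1.18, from vehicle levels below the filter level in both lines.

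Enzymes that modify collagen overlap this list. Of 18 collagen hydroxylases and lysyl oxidases on the array, 5 were in the shared set, all higher, and all 5 also stand on the list of HIF targets. P4HA2, a collagen prolyl hydroxylase subunit, had changes of 2.18 and 2.76 (limma adjusted p = 0.0540), LOX 2.39 and 1.53, and LOXL2 1.48 and 2.14. Of 26 histone demethylases, 2 were in the shared set. KDM3A, also a HIF target, had changes of 1.29 and 1.26, and HR, the hairless demethylase, 1.15 and 1.75. KDM4B, the demethylase named in the title of the study under its other name JMJD2B, had 0.66 and 0.09, and neither it nor KDM4A nor KDM4C was in the shared set.

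**Figure D3:**
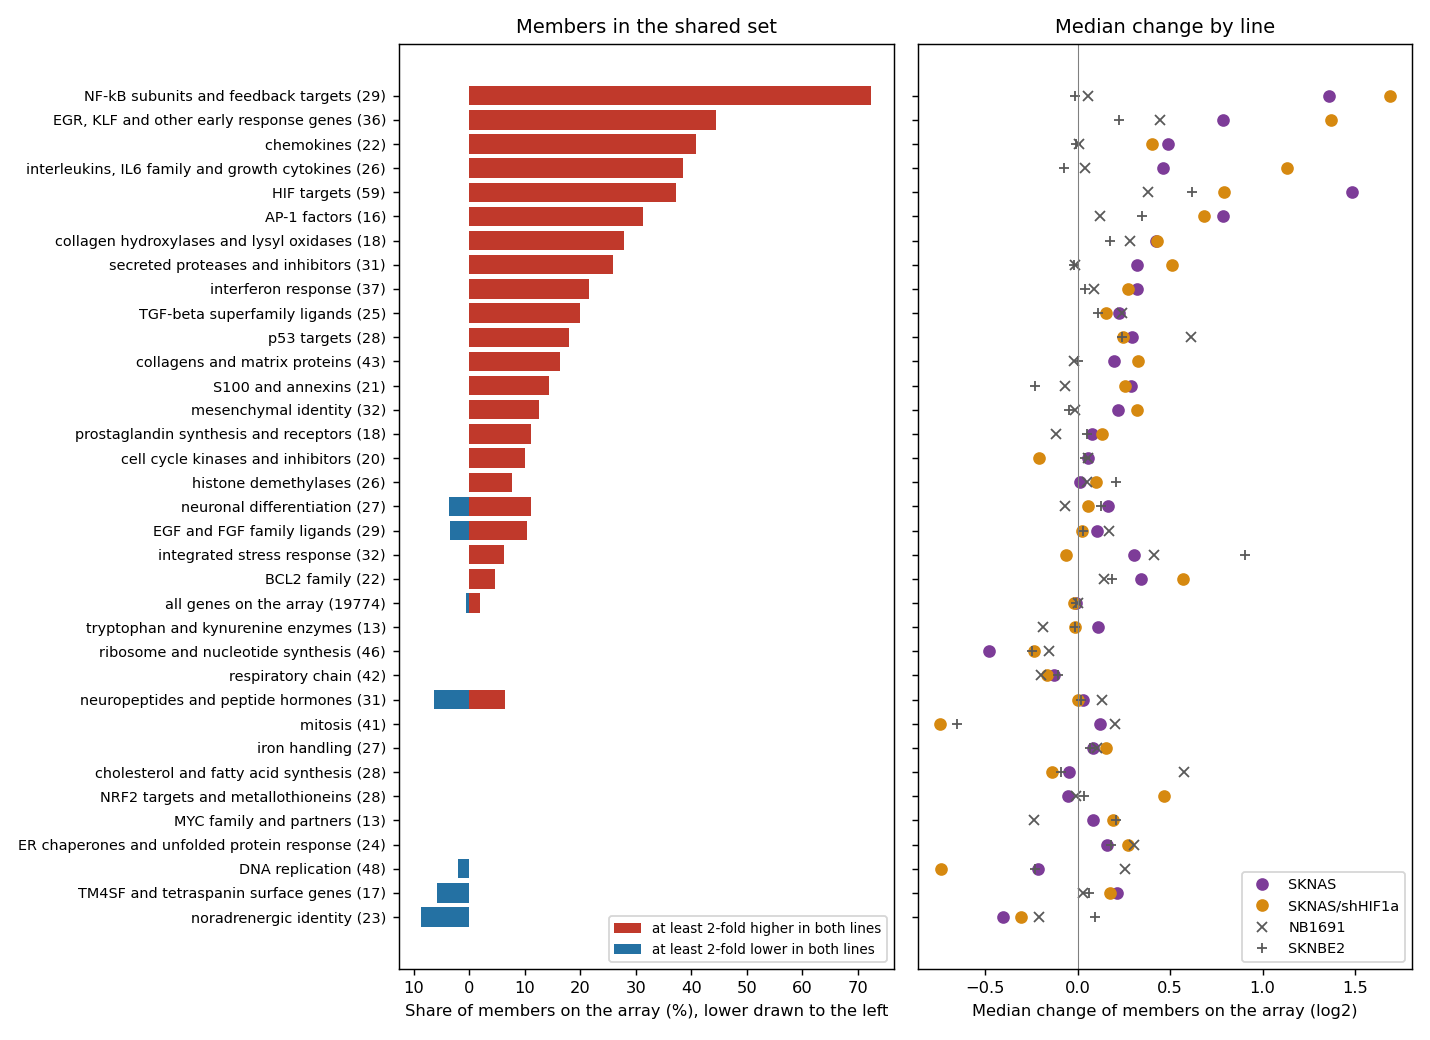
Gene lists (rows, with the number of members on the array) ordered by the share of shared higher minus shared lower members. Left, the share of members on the array at least 2-fold higher (red) or lower (blue, drawn to the left) in both lines, in percent. Right, the median log2 change of the same members, with no level filter, in each of the 4 lines, where circles are SKNAS and SKNAS/shHIF1a and crosses NB1691 and SKNBE2. NF-kB genes (21 of 29) stand at the top with crosses near 0, chemokines have 9 of 22, and of all 19774 genes on the array 1.82% were shared higher and 0.607% lower.

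Early response genes, which answer to growth factor and stress signals, were often in the shared set. Of 36 EGR, KLF and related genes on the array, 16 were higher and 0 lower, against 1.82% and 0.607% of all genes there. The test in limma called ZFP36. ZFP36, which encodes a protein that destabilises cytokine mRNAs, rose from 6.14 to 8.31 in SKNAS and from 5.61 to 7.68 in SKNAS/shHIF1a (2.12 ± 0.14, limma adjusted p = 0.0483). HBEGF, an EGF receptor ligand, had changes of 2.48 and 3.26, KLF4, a transcription factor, 2.14 and 2.54, and DUSP5, an ERK phosphatase, 1.93 and 2.49. Of 16 AP-1 factor genes, 5 were in the shared set, all higher. JUN had changes of 1.99 and 1.78, MAFF 1.87 and 2.16, FOS 2.06 and 1.31, and JUNB 1.20 and 1.07, none of which passed.

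CDKN1A, which encodes the cyclin-dependent kinase inhibitor p21, rose from 6.03 to 8.92 in SKNAS and from 6.36 to 9.56 in SKNAS/shHIF1a (3.05 ± 0.16, limma adjusted p = 0.0402). GADD45B, a stress sensor, rose from 4.68 to 7.67 and from 4.65 to 8.05 (3.20 ± 0.17, limma adjusted p = 0.0402). Both stand on a list of p53 targets, of which 5 of 28 on the array were in the shared set as higher, including DDB2, a DNA damage binding protein, with 1.22 and 1.26, and TNFRSF10B, a death receptor, with 1.17 and 1.46. The median of the 27 tested was 0.36 and 0.26. BCL2A1, an anti-apoptotic BCL2 relative and known NF-kB target, had changes of 3.11 and 5.33 and was the only member of the BCL2 family in the shared set. Its vehicle levels, 2.55 and 2.50, were below the filter level.

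Secreted proteases, matrix proteins and growth factors formed a further part of the higher set. Of 31 secreted proteases and inhibitors on the array, 8 were shared higher and 0 lower. MMP9, a gelatinase, had levels of 4.21 and 7.62 in SKNAS and 4.45 and 10.23 in SKNAS/shHIF1a, CTSS, a cathepsin, had changes of 2.85 and 4.33, and MMP1, a collagenase, 2.41 and 4.50. PLAT, tissue plasminogen activator, was the called member and rose by 2.05 and 2.06. PLAT was named after its values were seen. CEMIP, which takes part in hyaluronan breakdown, rose from 3.71 to 8.47 and from 3.64 to 8.81 (4.97 ± 0.17, limma adjusted p = 0.0253), and was the third largest shared increase.

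Among 43 collagens and matrix proteins on the array, 7 were shared higher and 0 lower. COL7A1, the anchoring fibril collagen, rose from 4.39 to 7.29 in SKNAS and from 4.11 to 6.80 in SKNAS/shHIF1a (2.79 ± 0.15, limma adjusted p = 0.0402). TNC, the matrix glycoprotein tenascin C, had changes of 2.05 and 2.90, and TGFBI 1.96 and 3.73. Of 25 TGF-beta superfamily ligands and related genes, 5 were shared higher. INHBA, the activin A subunit, had levels of 3.52 and 6.25 in SKNAS and 5.49 and 10.60 in SKNAS/shHIF1a, and GREM1, a BMP antagonist, had changes of 2.12 and 4.07. S100A3, a calcium-binding protein, rose by 2.23 and 2.41 (limma adjusted p = 0.0483).

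Some of the largest increases stood on none of these lists. RRAD, a small GTPase, rose from 3.18 to 7.68 in SKNAS and from 2.85 to 8.01 in SKNAS/shHIF1a (4.83 ± 0.22, limma adjusted p = 0.0335). COXFA4L3, a small mitochondrial protein gene, had levels of 5.14 and 9.84 and of 4.04 and 10.47 (limma adjusted p = 0.0540). NPTX1, neuronal pentraxin 1, had changes of 3.39 and 5.13, and LRRC15, a membrane protein of stromal cells, 3.21 and 4.78. For RRAD both vehicle arrays lay below the filter level, as they did for 15 of the 358 shared higher genes in all. Of the 358, 132 (36.9%) stood on at least 1 of the 39 lists, which hold 6.01% of tested genes and were chosen with earlier results known, and 62 stood on the chemokine, cytokine, NF-kB or HIF lists.

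Of the 120 shared decreases, 9 (7.5%) stood on any list, close to the 6.01% of all tested genes. TAC1, the precursor of substance P, was the gene that fell in limma, from 9.84 to 7.65 in SKNAS and from 10.84 to 8.52 in SKNAS/shHIF1a (-2.26 ± 0.15, adjusted p = 0.0483). The call of TAC1 held in 5 of the 7 other fits of the 4 arrays with the block. TM4SF4, a membrane protein of the TM4SF family, had the largest smaller change, with levels of 5.48 and 2.92 in SKNAS and 10.31 and 4.42 in SKNAS/shHIF1a. CALCB, which encodes the beta form of calcitonin gene-related peptide, had levels of 6.38 and 4.36 and of 9.31 and 4.46. In both TM4SF4 and CALCB the vehicle level was much higher in the derivative, and neither passed (limma adjusted p = 0.103 and 0.109).

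PCDH20, a protocadherin, had changes of -1.93 and -4.06, and GPR27, an orphan receptor, -2.07 and -1.86, although the other probe set of GPR27 had opposite signs in the lines. NANOG, a pluripotency factor with near-identical gene copies that a probe set may not tell apart, had -2.03 and -1.81. KCNIP4, a potassium channel partner, had -1.81 and -2.28, PALMD -2.10 and -1.80, and ELAVL4, a neuronal RNA-binding protein, -1.65 and -1.79. FBP1, a gluconeogenic enzyme, had -1.66 and -1.65, the most equal pair of these. The other genes among the 15 largest decreases were CABP7, CCDC102B, SMCO4, MYRIP and ARAP2, with smaller changes between -1.80 and -1.66.

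Of 23 noradrenergic identity genes, 2 were shared lower and 0 higher, and 15 were lower in both lines, as were 5515 of the 14517 tested genes. SLC6A2, the noradrenaline transporter, had changes of -1.30 and -1.14, and ISL1, a transcription factor of sympathetic neurons, -1.08 and -1.84. On the list of 27 neuronal differentiation genes, ELAVL4 was lower while the neurofilament genes NEFM (2.17 and 1.55) and NEFL (2.05 and 1.29) and L1CAM (1.05 and 1.30) were higher. Of 32 mesenchymal identity genes on the array, 4 were shared higher, of which IRF1 was called. CD44, a hyaluronan receptor, had changes of 1.07 and 2.27. AXL, a receptor tyrosine kinase, had 1.06 and 1.32, but its vehicle level was 7.41 in SKNAS and 2.99 in SKNAS/shHIF1a.

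Few proliferation genes reached the shared set, although most DNA replication genes were lower in both lines. Of 48 DNA replication genes, 39 were lower in both lines (5515 of all 14517 tested genes were), and POLA1, a DNA polymerase subunit, was the member in the shared set, with -1.01 and -1.45. The median of this list was -0.21 in SKNAS and -0.74 in SKNAS/shHIF1a. For 41 mitosis genes the medians were 0.12 and -0.74, and 0 were in the shared set in either direction. MKI67, a proliferation marker, had 0.72 and 0.22, but its 3 other probe sets above the filter level each had opposite signs in the lines. Of 46 ribosome and nucleotide synthesis genes, 36 were lower in both lines, and of 42 respiratory chain genes 30 were. Neither list had a gene in the shared set, and at the share of 0.827% over all tested genes fewer than 1 would be expected. MYC had changes of -1.06 and -0.63.

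Of 27 iron handling genes on the array 0 were in the shared set, a count near the shares over all genes. TFRC, the transferrin receptor, had changes of 0.76 and 1.02, and its 3 other probe sets had smaller changes from 0 (opposite signs) to 1.33. SLC25A37, a mitochondrial iron importer, had 0.85 and 2.59, and its 8 other probe sets had smaller changes from 0.18 to 1.31. For TFRC and SLC25A37 the choice of probe set therefore decided whether 2-fold was reached. Other lists with 0 shared genes, each of 28 genes or fewer on the array, included NRF2 targets and metallothioneins, ER chaperones, cholesterol and fatty acid synthesis, MYC family and partners, and tryptophan enzymes. Of 32 integrated stress response genes, 2 were shared higher.

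Markers checked against the labels showed a mixed picture. The noradrenergic markers PHOX2A, GATA3, CHGA and ISL1 had vehicle levels of 7.81, 11.10, 11.28 and 8.58 in SKNAS. HAND2 and DBH were lower, with 4.84 and 4.79 in SKNAS and 4.56 and 5.72 in SKNAS/shHIF1a. TH, the enzyme that starts catecholamine synthesis, had 3.15 in SKNAS and 3.59 in SKNAS/shHIF1a, near the filter level. The mean of the 7 noradrenergic markers under vehicle was 7.36 in SKNAS and 7.52 in SKNAS/shHIF1a. The mesenchymal marker VIM had 13.14 and 13.23 under vehicle, while AXL had 7.41 and 2.99. The mean of the 7 mesenchymal markers was 9.30 and 7.96. The fibroblast markers COL1A1, DCN and LUM were at or above 10.17 on all 4 arrays, with COL1A2 at 3.13 in SKNAS. The mean level of the 4 fibroblast markers was 9.84 and 9.61 in SKNAS and 9.71 and 9.33 in SKNAS/shHIF1a under vehicle and ciclopirox. Of 6 lymphoid and myeloid markers, CD14, LYZ and TYROBP were below the filter level on all 4 arrays and CD3D reached 3.31. PTPRC, which encodes CD45, was at 11.53 and 10.42 in SKNAS and at 9.57 and 6.33 in SKNAS/shHIF1a, and CD68 had changes of 1.04 and 1.23. The mean of the 6 was 4.32 and 4.41 in SKNAS and 4.04 and 3.68 in SKNAS/shHIF1a.

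Of 4 epithelial markers, CDH1 and KRT19 were below the filter level on all 4 arrays and EPCAM reached 3.34. KRT7, a keratin, went from 3.20 to 5.33 and from 2.79 to 7.34 without passing (limma adjusted p = 0.0972). The mean of the 4 went from 3.05 to 3.59 and from 2.93 to 4.17. Endothelial markers CDH5, VWF and KDR were below the filter level on all 4 arrays, and PECAM1 had changes of 0.71 and 1.48. The part of these markers in the chemokine and NF-kB results was not tested. In bulk RNA, fewer cells of a type and less RNA per cell cannot be told apart.

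NB1691 and SKNBE2, 2 neuroblastoma lines labelled N-Myc and given the same treatments, passed 2-fold for a minority of the shared genes. Of the 358 shared higher genes, 48 were also at least 2-fold higher in NB1691 (13.4%, against 3.31% of all tested genes) and 38 in SKNBE2 (10.6%, against 2.11%). In 290 neither line passed 2-fold in that direction, and the median changes were 0.20 and 0.09. Of the 120 shared lower genes, 31 were 2-fold lower in NB1691 (25.8%, against 5.12%) and 12 in SKNBE2 (10%, against 1.25%), and 83 in neither.

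The difference in response between the SKNAS-derived lines and NB1691 with SKNBE2 was tested in limma over all 8 arrays, with the cell line as a block. SKNAS and its derivative share 1 origin but count as 2 lines in this fit, so its p-values may be too small. It called 5 genes (0.0344% of those tested), all with the higher change in the SKNAS-derived lines. CCL20 had changes of -0.06 in NB1691 and -0.23 in SKNBE2, a difference of 6.99 ± 0.32 (moderated SE, limma adjusted p = 0.0159). CXCL8 had -0.26 and -0.25 there, a difference of 6.28 ± 0.24 (limma adjusted p = 0.0114). CEMIP differed by 4.80 ± 0.26 and CXCL11 by 4.44 ± 0.25 (limma adjusted p = 0.0252 for each), and PTGS2 by 3.52 ± 0.23 (limma adjusted p = 0.0419). All 5 had levels of at most 3.52 on the 4 arrays of NB1691 and SKNBE2. With any 1 of the 4 lines left out the test called 0 genes, and at an unadjusted p under 0.05 there were 1643 with all lines, 377 of them in the shared set. The smallest adjusted p for a gene with the lower change in the SKNAS-derived lines was 0.0664 in limma.

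**Figure D4:**
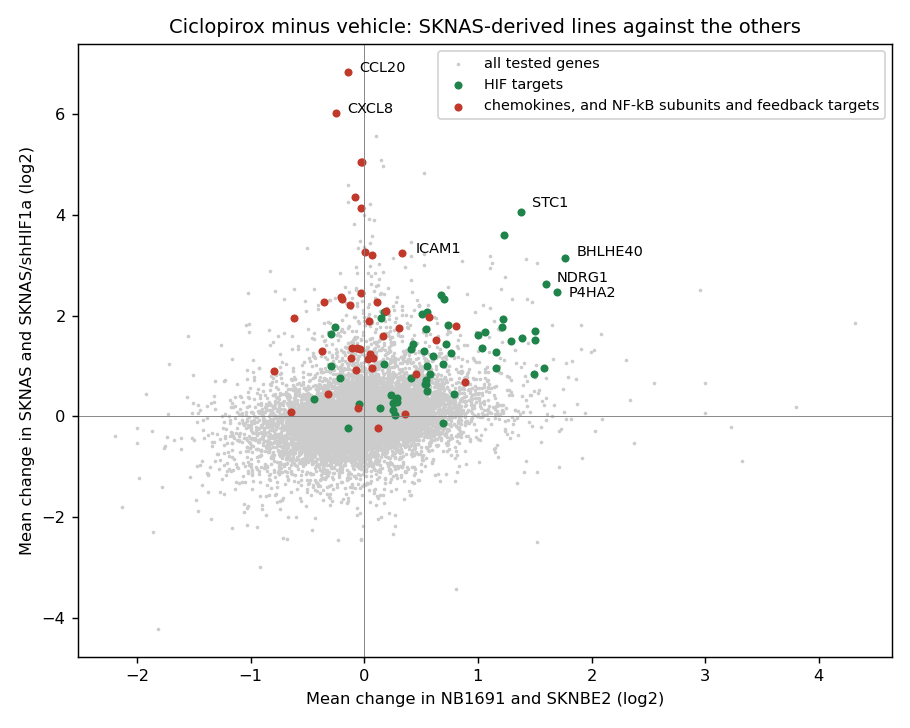
Mean log2 change under ciclopirox in NB1691 and SKNBE2 (x axis) against the mean in SKNAS and SKNAS/shHIF1a (y axis), 1 point per gene. Grey points are all 14517 tested genes, red points the chemokine and NF-kB lists, green points the HIF targets. Red points rise along the y axis near 0 on the x axis, with CCL20 at 6.84, while green points such as BHLHE40 spread to the right.

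The NF-kB list had medians of 0.05 in NB1691 and -0.01 in SKNBE2, where the HIF target list had 0.38 and 0.65. In BHLHE40 the changes were 2.99, 3.30, 1.85 and 1.69 in SKNAS, SKNAS/shHIF1a, NB1691 and SKNBE2, and in P4HA2 they were 2.18, 2.76, 2.33 and 1.06. CDKN1A had 2.89, 3.20, 1.72 and 1.32, and IRF1 had 2.71, 2.84, 1.07 and 1.42. In all, 18 shared higher genes and 6 shared lower genes passed 2-fold the same way in all 4 lines. The difference test was not passed by BHLHE40, CDKN1A or IRF1 (limma adjusted p = 0.205, 0.205 and 0.181). Their changes were larger in the SKNAS-derived lines by 1.37 ± 0.25, 1.52 ± 0.27 and 1.54 ± 0.25, so not passing does not show an equal response.

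Many genes are measured by more than 1 probe set, and the brightest was used. For 236 shared genes, 384 other probe sets reached the filter level, of which 335 (87.2%) had the same sign in both lines. CXCL8 had 1 other probe set, with a smaller change of 5.81, and PTGS2 had 1, with 3.26. The other probe set was far below the brightest for L1CAM (0.04), PTGES (0.06), AXL (0.09), NFKBIA (0.21) and KCNIP4 (-0.20), all under 2-fold. Further genes with the other probe set under 2-fold included TNFAIP2 (0.76), PLAU (0.69), TNC (0.48) and HR (0.45). The called genes GADD45B and ICAM1 had 2 other probe sets each, with smaller changes from 0.71 to 2.14 and from 0.95 to 3.47. CD44 had 8 others, 7 with the same sign in both lines, with smaller changes from 0 to 1.92. SLC6A2 had 4 other probe sets, with smaller changes from -0.49 to 0 (opposite signs). HAS3, a hyaluronan synthase gene called by limma and named after its values were seen, had 1 other probe set whose signs differed between the lines.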

How the data were processed

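Total RNA from 4 human neuroblastoma lines was hybridised to Affymetrix arrays, 1 per line and treatment. The deposited values are log2 signals that the authors made with RMA, per the submitters' processing notes, with no version given. No scaling was added. Of 54715 probe sets, 40920 carried 1 gene symbol (19774 genes) and 864 several. Each gene's brightest probe set (mean of 8 arrays) was used, and genes whose mean reached log2 3.21, the 40th percentile over probe sets, were tested.

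Changes were ciclopirox minus vehicle within a line. The line differences on the vehicle and ciclopirox arrays correlated across genes (Pearson r = 0.679), and pairing follows from the shared cell line. Tests were two-sided in limma 3.58.1 (R 4.3.3), with Benjamini-Hochberg adjustment, after a check on simulated data. The 4-array fit had 1 residual and 3.12 prior degrees of freedom, the 8-array fit 2 and 3.29. Members, lists (39) and tests were chosen with earlier results of these data known.

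Named genes were the 15 largest shared changes each way, up to 4 shared members per list (the largest where none), a fixed set around HIF, MYC, KDM4 and iron, and up to 6 genes each way per test. Gene symbols are those of the platform annotation, updated through RefSeq. CA9 was not analysed here.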

Additional observations from a re-analysis of the deposited data

Results flagged for a closer look

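For 5 genes the change under ciclopirox differed between the SKNAS-derived lines and the other lines in the limma test of the difference itself. CCL20 differed by 6.99, CXCL8 by 6.28, CEMIP by 4.80, CXCL11 by 4.44 and PTGS2 by 3.52 on the log2 scale. Each had a change above 3 in both SKNAS-derived lines and between -0.27 and 0.25 in NB1691 and SKNBE2. All 5 calls were lost when any 1 line was left out of the test.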

How the results depend on the processing

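Main counts were 358 higher and 120 lower in the shared set, 33 higher and 1 lower in the 4-array limma test, and 5 and 0 in the test of difference. The shared set held 588 and 204 probe sets when each was tested alone, 70 lower genes with the mean of probe sets, 767 and 650 genes at 1.5-fold and 76 and 3 at 4-fold. With 1 line left out it ranged from 490 to 802 higher and from 235 to 625 lower.

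The limma calls, higher and lower, were 107 and 20 without a filter, 68 and 9 with the 60th percentile filter, 15 and 0 with probe sets and filter chosen on the 4 arrays, 66 and 9 with the mean of probe sets, and 342 and 98 with every probe set alone. They were 75 and 8 after quantile normalization, 15 and 0 after centring arrays on their medians, 169 and 37 with all 8 arrays, 272 and 88 with an intensity trend, and 492 and 343 at a threshold of 0.1. With 1 line left out, which assumes the lone line varies like the others, calls ranged from 3 to 87 higher and from 0 to 17 lower. Without the replicate block (the cell line pairing) limma called 0 and 0, with a smallest adjusted p of 0.113 and 2044 genes at an unadjusted p under 0.05.

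The test of difference called 8 higher and 1 lower with the mean of probe sets, 2 higher with every probe set alone, 1 lower in addition with an intensity trend, 12 and 1 at a threshold of 0.1, 1 higher without the replicate block, and 0 with any 1 line left out. The causes were not tested. No mean change or difference of a named gene changed sign where it was called in the main or the alternative fit. Counts could not show a reversal, and a smaller change is set to 0 where the lines differ in sign. Named genes were not followed with every probe set alone. Members in the shared set, fold cuts aside, ranged from 6 to 9 for chemokines, 17 to 21 for NF-kB genes and 15 to 23 for HIF targets. One array per line and treatment gives no error within a line, and genes near array background may have changes that read too small.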
